A study of Mus musculus with 6 samples.

Results

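The genes Csf1r, Csf2ra and Csf3r encode the receptors through which the myeloid colony-stimulating factors act. Their members were chosen by name: every transcript row of the deposited table whose gene symbol is one of these 3, which gave 4 of 3022 rows and 3 of 2744 genes. Csf1r and Csf3r had 1 row each, and Csf2ra had 2 rows.

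Csf1r is the receptor tyrosine kinase for M-CSF (CSF1) and IL-34, and it carries the survival and differentiation signal of monocytes and macrophages. Csf3r is the single-chain receptor for G-CSF (CSF3), which drives the formation of neutrophils. Csf2ra is the ligand-binding alpha chain of the GM-CSF (CSF2) receptor; it has a short cytoplasmic tail and signals together with the beta common chain encoded by Csf2rb, through JAK2 and STAT5. The 3 receptor genes are classical markers of commitment to the granulocyte and monocyte lineages, and the transcription factors PU.1, C/EBP and RUNX1 are known regulators of them.

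Transcription was followed by PRO-seq, in which engaged RNA polymerases extend their transcripts with biotin-labelled nucleotides in isolated nuclei and the labelled RNA is sequenced. The cells, labelled cKIT+, were bone marrow progenitors from female C57/BL6 mice of the genotype Mllt3 flox/flox Rosa26Cre+; no age is given. They were transduced with wild-type MLLT3 (the WT group, 3 libraries) or with its K63E K67E double mutant (the DM group, 3 libraries). MLLT3 (AF9) reads acylated histone tails through its YEATS domain. In both groups 200 nM 4-hydroxytamoxifen in the methylcellulose was to delete the endogenous Mllt3 during 8 days of culture; the promoter and the level of the transduced gene are not given. The medium held GM-CSF, SCF, IL-3, IL-6, IL-11 and EPO, among others, at 20 ng/mL each and Flt3L at 10 ng/mL. The ligand of Csf2ra was therefore supplied, whereas neither M-CSF nor G-CSF is listed. Replicates are numbered 1 to 3 in each group and all 6 libraries are labelled as batch 1. Nothing says that they came from separate mice or cultures, so the p-values measure the spread between these libraries, which may be technical.

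For each transcript the table gives raw read counts in a head window, which is 330 bases long and begins 30 bases upstream of the annotated 5′ end, and in the body, which is the rest of the transcript with its introns. Counts were scaled to reads per 1000000 reads of the library total (RPM). Library totals ran from 15112853 (WT replicate 2) to 22981603 (WT replicate 1). Mllt3 itself still had body reads in every library, at 77.2 to 95.3 RPM in WT and 58.4 to 63.0 in DM; whether these come from undeleted alleles, the remaining exons or the transduced copy cannot be told apart. WT replicate 2 stood apart in its heads, with 23.7 head reads per 100 body reads over all genes held, against 12.7 to 14.9 in the other 5 libraries. Every row of the table had an adjusted p under 0.05 in the authors' own body comparison (the largest was 0.0498). The presence of these receptors in the table and the direction of their bodies therefore follow from that selection, and a body test repeated here is a description.

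The Csf3r row (transcript Csf3r-202, ENSMUSG00000028859.14) lies on chromosome 4, 126024550 to 126044440, plus strand, in the mm10 build, and covers 92.4% of the RefSeq gene. The Csf2ra rows (ENSMUSG00000059326.7) lie on chromosome 19, minus strand: Csf2ra-202 from 61223957 to 61226683 and Csf2ra-205 from 61223957 to 61225490. They share a 3′ end, and the whole of Csf2ra-205 is inside Csf2ra-202, so their counts are not independent. They cover 24.2% and 13.6% of the RefSeq gene, and their 5′ ends are 1735 and 2928 bases downstream of the start of its RefSeq promoter entry. The head windows of Csf2ra are thus at internal annotated starts. In RefSeq, the non-coding gene Gm32908 overlaps the Csf3r head window. Use of strand in the counting is not given in the sources used here, so its reads and those of Csf3r there cannot be told apart.

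The RefSeq promoter entries (GRCm38.p6, 250 bases before to 50 after the start) of 2 members are shown because the Csf3r entry, chr4:126024409-126024708 on the plus strand, overlaps the head window whose reads are given below, and because the Csf2ra entry, chr19:61228369-61228668 on the minus strand, marks the annotated start that the Csf2ra windows do not reach. Capitals mark GAGGAA, the core letters bound by PU.1.
Csf3r: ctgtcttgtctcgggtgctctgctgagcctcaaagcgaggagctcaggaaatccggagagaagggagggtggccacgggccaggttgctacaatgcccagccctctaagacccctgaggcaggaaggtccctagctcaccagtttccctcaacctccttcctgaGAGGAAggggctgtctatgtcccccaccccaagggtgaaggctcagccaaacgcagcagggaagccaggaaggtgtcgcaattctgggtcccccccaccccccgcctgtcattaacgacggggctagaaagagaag
Csf2ra: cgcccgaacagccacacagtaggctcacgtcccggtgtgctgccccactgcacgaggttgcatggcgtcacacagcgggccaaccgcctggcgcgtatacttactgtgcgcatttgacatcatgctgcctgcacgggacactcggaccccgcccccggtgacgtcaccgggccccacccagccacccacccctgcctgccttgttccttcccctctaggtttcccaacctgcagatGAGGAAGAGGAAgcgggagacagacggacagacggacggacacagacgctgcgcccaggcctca
GAGGAA occurred once in the Csf3r entry, 86 bases before the start, and at 2 adjoining places in the Csf2ra entry, 14 and 8 bases before the start. The 5′ end of the Csf3r-202 row is at -109 bases from the start of the Csf3r entry. The Csf3r match is therefore downstream of that 5′ end and inside the head window. On either strand, 28.3% of the 32851 mouse promoter entries of this length hold GAGGAA. The C/EBP letters TTGCNNAA (10.8% of entries) and their palindromic form TTGCGCAA (0.183%), the RUNX letters TGTGGT (16.8%) and TGCGGT (6.45%), and the TATA box letters TATAAA (13.6%) were in neither window. The GC box letters CCGCCC, held by 35.7% of entries, were in the Csf2ra window at 102 bases before the start and not in that of Csf3r. TTGCGCAA is one form of TTGCNNAA; no other searched motifs share letters at a matched place. These matches are descriptions of the letters and not of binding.

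The Csf1r row (Csf1r-205, ENSMUSG00000024621.16) lies on chromosome 18, 61105650 to 61132149, plus strand, and covers 99.7% of the RefSeq gene; its sequence is not shown. The microRNA gene Mir6983, the non-coding gene Gm52352 and the edge of Hmgxb3 overlap its body in RefSeq, and their reads cannot be told apart from those of Csf1r without the strand.

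Transcription through the bodies of all 3 receptor genes was higher in DM than in WT. Body RPM was higher in every DM library than in every WT library for 4 of 4 rows, where 56.8% of all rows in the table did the same. The edgeR quasi-likelihood test called 4 of 4 rows higher in DM. Of the 2999 rows tested 99.4% were called, 57.4% as higher and 42.1% as lower, so the count by itself says nothing particular about the receptors. Because PRO-seq was done on bulk cells, more cells of a type and more transcription per cell cannot be told apart.

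The Csf1r body held 599, 643 and 1081 reads in WT against 2199, 1692 and 1978 in DM, here and below in the order of replicates 1 to 3. In RPM these were 26.1, 42.5 and 47.2 in WT against 96.3, 83.7 and 99.0 in DM. WT replicate 1 was the lowest and the lowest DM library was still above the highest WT library. The mean rose from 38.6 ± 11.1 to 93.0 ± 8.16 RPM (SD, n = 3 each). As a log2 fold change this was 1.27 (SE 0.200, edgeR adjusted p 6.72e-04), the highest of the 4 rows. Of all rows tested, 91.5% had a log2 fold change at or below it.

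The Csf3r body held 444, 270 and 366 reads in WT against 886, 762 and 811 in DM. Its RPM values were 19.3, 17.9 and 16.0 in WT against 38.8, 37.7 and 40.6 in DM, with little spread within either group. The mean rose from 17.7 ± 1.67 to 39.0 ± 1.46 RPM (SD, n = 3 each). As a log2 fold change this was 1.14 (SE 0.110, edgeR adjusted p 7.82e-05).

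The Csf2ra-202 body held 767, 690 and 706 reads in WT against 1328, 1126 and 1238 in DM. In RPM these were 33.4, 45.7 and 30.9 in WT against 58.1, 55.7 and 62.0 in DM. WT replicate 2 was the WT library nearest to DM. The mean was 36.6 ± 7.92 RPM in WT against 58.6 ± 3.16 in DM (SD, n = 3 each), or 0.68 as a log2 fold change (SE 0.149, edgeR adjusted p 0.00314). With TMM factors computed from the rows of the table, it was 0.38 and not past the threshold (edgeR adjusted p 0.0698), and with DESeq2 it was 0.34 (adjusted p 0.0808).

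The shorter Csf2ra-205 body held 170, 122 and 162 reads in WT against 326, 306 and 322 in DM. This was 7.40, 8.07 and 7.08 RPM in WT against 14.3, 15.1 and 16.1 RPM in DM, and the groups were well apart. The mean rose from 7.52 ± 0.507 to 15.2 ± 0.922 RPM (SD, n = 3 each), or 1.01 as a log2 fold change (SE 0.147, edgeR adjusted p 4.56e-04).

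**Figure D1:**
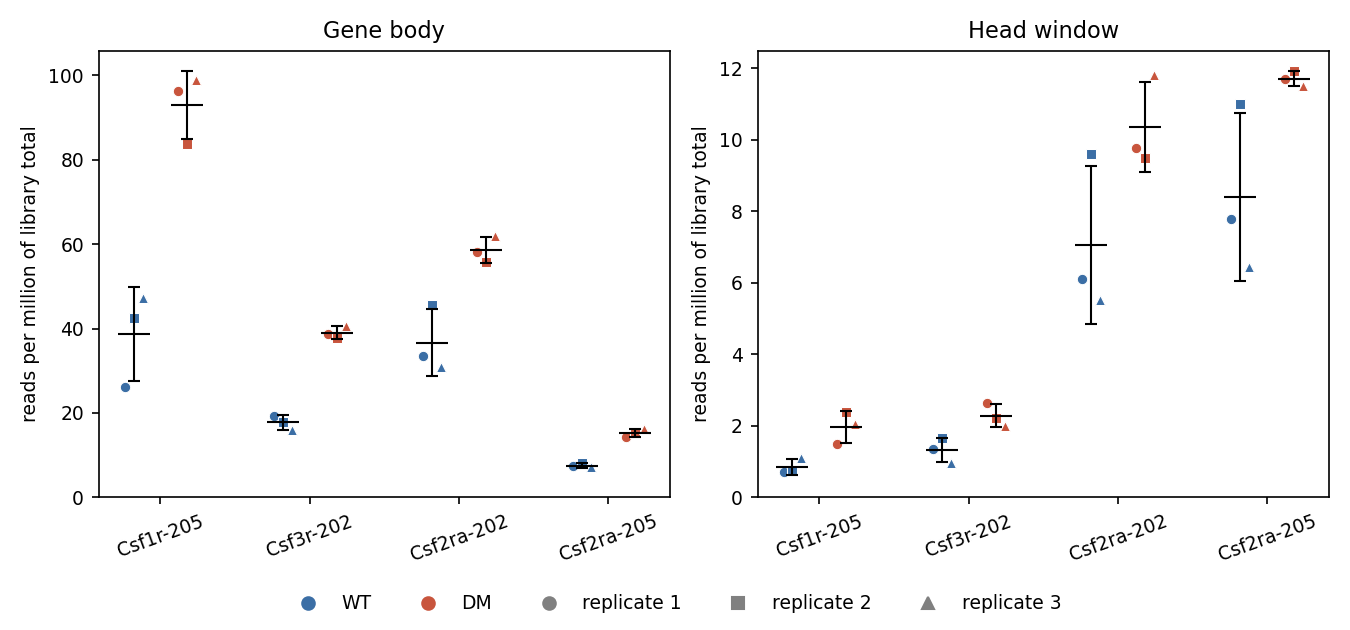
RPM in the body (left) and the head window (right) of the 4 receptor rows, with 1 point per library, WT in blue and DM in red; black lines show the mean and the SD (n = 3 each). In bodies every DM library is above every WT library, whereas in the Csf2ra-202 head WT replicate 2, at 9.59 RPM, lies above DM replicate 2, at 9.50 RPM.

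In the authors' deposited table, the body log2 fold changes were 1.24 for Csf1r-205 (SE 0.217, adjusted p 2.56e-07), 1.11 for Csf3r-202 (SE 0.137, adjusted p 3.29e-14), 0.99 for Csf2ra-205 (SE 0.181, adjusted p 7.89e-07) and 0.64 for Csf2ra-202 (SE 0.191, adjusted p 0.00564). The authors' deposited table also ranks the merged body ratio of each row as a percentile over more rows than the table holds, and this percentile was 98.9% for Csf1r-205, 98.0% for Csf3r-202, 97.7% for Csf2ra-205 and 94.7% for Csf2ra-202. The percentile of the merged head ratio in the authors' deposited table was 98.2%, 96.0%, 92.4% and 93.5% in the same order.

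Levels of the genes were compared per length, as reads per 1000 bases of the window per 1000000 reads of the library total (RPKM). The windows differ in what they cover: the Csf2ra-202 body is 2425 bases from an internal start, and those of Csf1r and Csf3r are 26198 and 19589 bases of nearly whole genes. The Csf2ra-202 body was the densest, at 15.1 ± 3.27 RPKM in WT against 24.2 ± 1.30 in DM (SD, n = 3 each), above 97.6% of rows in WT. The Csf2ra-205 body followed at 6.10 ± 0.411 and 12.3 ± 0.749 RPKM. Csf1r stood at 1.47 ± 0.425 RPKM in WT against 3.55 ± 0.312 in DM. Csf3r stood at 0.905 ± 0.0850 and 1.99 ± 0.0746 RPKM, close in WT to the median row at 0.964. In WT the values of Csf1r and Csf3r adjoined, the lowest for Csf1r being 0.995 and the highest for Csf3r 0.986 RPKM, both in replicate 1. In DM every Csf1r value (3.19 to 3.78 RPKM) was above every Csf3r value (1.92 to 2.07 RPKM). In each of the 6 libraries the order of these windows was Csf2ra, Csf1r, Csf3r.

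Ratios between receptors within a library do not depend on how libraries are scaled, and the 3 pairs of genes were compared in this way, with Csf2ra-202 standing for Csf2ra. The Csf1r to Csf3r density ratio was 1.01, 1.78 and 2.21 in WT against 1.86, 1.66 and 1.82 in DM. The groups overlapped, the log2 ratio differed by 0.17 (two-sided exact permutation p 0.8, adjusted over the 3 pairs 0.8), and without WT replicate 1 the difference was -0.16. The Csf1r to Csf2ra ratio was 0.0723, 0.0863 and 0.142 in WT against 0.153, 0.139 and 0.148 in DM, a log2 difference of 0.61 with overlapping groups (exact permutation p 0.2, adjusted 0.3). It was 0.30 when Csf2ra-205 stood for Csf2ra, and 0.41 to 0.89 when 1 library was left out, the highest without WT replicate 3. The Csf3r to Csf2ra ratio was 0.0717, 0.0484 and 0.0642 in WT against 0.0826, 0.0838 and 0.0811 in DM. Here the groups did not overlap and the log2 difference was 0.44, at the lowest p open to 3 libraries a side (exact permutation p 0.1, adjusted 0.3). With Csf2ra-205 in its place that difference was 0.13 and the groups overlapped. No pair was past the threshold, and the design could not have put one there.

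Head windows showed the same direction with wider errors. For the heads, 1 of 4 rows passed the threshold as higher in DM, against 10% of the 2846 rows tested. In RPM, 3 of 4 rows were higher in every DM library than in every WT library, against 18.4% of all rows. Both shares are over rows of either body direction, whereas all 4 receptor rows were higher in their bodies. Csf2ra gives 2 of the 4 rows. Apart from that of Csf2ra-205, these heads were not what the authors' calls were made on, but they come from the same libraries as the bodies. The Csf2ra-205 head lies inside the Csf2ra-202 body, so its reads were part of a called body.

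The Csf1r head held 16, 11 and 25 reads in WT against 34, 48 and 41 in DM. The groups did not overlap in RPM, at 0.696 to 1.09 in WT and 1.49 to 2.37 in DM. The mean went from 0.839 ± 0.220 to 1.97 ± 0.448 RPM (SD, n = 3 each), or 1.21 as a log2 fold change (SE 0.355, edgeR adjusted p 0.0261). This call was lost when any 1 DM library was left out. Without DM replicate 1, 2 or 3 the log2 fold changes were 1.38, 1.06 and 1.18, with edgeR adjusted p of 0.0718, 0.126 and 0.119. In the same fits the heads called over all rows went from 596 to 18, 237 and 142, so the loss was not particular to Csf1r.

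The Csf3r head held 31, 25 and 22 reads in WT against 60, 45 and 40 in DM, or 0.962 to 1.65 RPM against 2.00 to 2.63. The groups were apart, yet the log2 fold change of 0.81 (SE 0.322) did not pass (edgeR adjusted p 0.0815). It was 0.86 with TMM factors (edgeR adjusted p 0.0379) and 0.98 without WT replicate 2 (edgeR adjusted p 0.0226), both past the threshold. It did not pass with DESeq2 (0.87, adjusted p 0.0741), with the authors' size factors (0.78, edgeR adjusted p 0.119) or without WT replicate 3 (0.62, edgeR adjusted p 0.208).

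The Csf2ra heads were the fullest of the set. The Csf2ra-202 head held 140, 145 and 126 reads in WT against 223, 192 and 236 in DM, at 7.06 ± 2.21 and 10.4 ± 1.27 RPM (SD, n = 3 each). WT replicate 2, at 9.59 RPM, lay within the DM range of 9.50 to 11.8, and the log2 fold change of 0.56 (SE 0.275) did not pass (edgeR adjusted p 0.149). The Csf2ra-205 head held 179, 166 and 147 reads in WT against 267, 241 and 230 in DM. Its RPM values were 7.79, 11.0 and 6.43 in WT against 11.7, 11.9 and 11.5 in DM, and WT replicate 2 again stood next to the DM libraries. As a log2 fold change this was 0.48 (SE 0.265, edgeR adjusted p 0.193). Without WT replicate 2 both heads passed, at 0.84 for Csf2ra-202 (edgeR adjusted p 0.00723) and 0.72 for Csf2ra-205 (edgeR adjusted p 0.0118). Both also passed with TMM factors (edgeR adjusted p 0.0154 and 0.0281) and with DESeq2 (adjusted p 0.0131 and 0.0256).

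The head to body ratio sets polymerase close to the annotated 5′ end against polymerase in the remaining transcript. Per base, heads were denser than bodies in all 6 libraries for all 4 rows. For Csf1r the head was 2.12, 1.36 and 1.84 times as dense as the body in WT and 1.23, 2.25 and 1.65 times in DM, so the groups overlapped. For Csf3r it was 4.14, 5.50 and 3.57 times as dense in WT and 4.02, 3.51 and 2.93 times in DM, again with overlap. Csf2ra-202 had the lowest mean ratio, at 1.40 ± 0.127 in WT against 1.30 ± 0.0913 in DM (SD, n = 3 each). Its body was not of even density, and the segments below show a drop in its 3′ part. The Csf2ra-205 body is that 3′ part, so the Csf2ra-205 ratio spans the drop. The 862 bases before the Csf2ra-205 head were about as dense as that head. They had 24.0 RPKM against 25.5 in WT and 36.8 against 35.5 in DM. Against the other rows of the table both Csf1r and Csf3r had sparse heads: the Csf1r head, at 2.54 RPKM in WT, was above 11.2% of rows and the Csf3r head, at 4.00 RPKM, above 17.4%, where the median head was at 17.3 RPKM.

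In the interaction test of window and group, 0 of 4 rows had a changed ratio past the threshold, and 0.0703% of the 2844 rows tested had one (edgeR). At an unadjusted p under 0.05 there were also 0 of 4 rows by edgeR, against 15.2% of all rows, and DESeq2 called 0 of 4. Over all rows tested the median log2 change of the ratio was -0.25, with 27.4% of rows above 0. The log2 change was -0.09 for Csf1r (SE 0.365, edgeR adjusted p 0.923), -0.32 for Csf3r (SE 0.299, edgeR adjusted p 0.596) and -0.11 for Csf2ra-202 (SE 0.240, edgeR adjusted p 0.842). These 3 values turned positive, to 0.27, 0.035 and 0.26, when heads and bodies were scaled by separate TMM factors. For Csf2ra-205 the change was -0.50 (SE 0.256, edgeR adjusted p 0.366), and -0.14 with separate TMM factors. Its head reads per 100 body reads were 105, 136 and 90.7 in WT against 81.9, 78.8 and 71.4 in DM, lower in every DM library than in every WT library, as in 20.9% of all rows. Standard errors of this size leave room for changes of the ratio in either direction for all 4 rows.

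**Figure D2:**
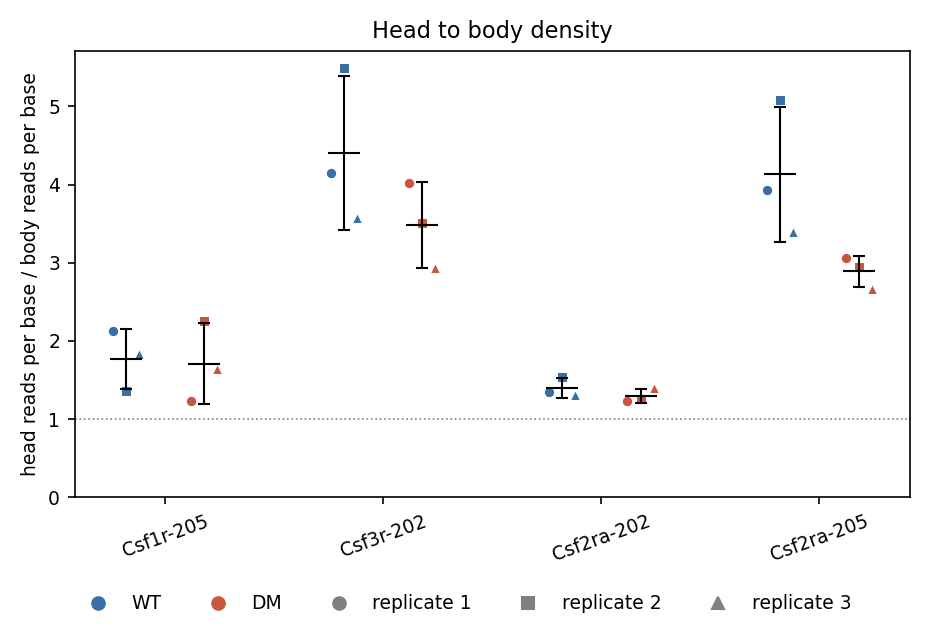
Head reads per base over body reads per base for the 4 receptor rows (vertical axis), 1 point per library, WT in blue and DM in red, with the mean and SD (n = 3 each); the dotted line marks equal density. All points are above 1, and WT replicate 2 is the highest point for Csf3r-202, at 5.50, for Csf2ra-205, at 5.08, and for Csf2ra-202, at 1.54.

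The nested Csf2ra rows divide the same stretch into 4 consecutive segments, obtained by subtracting the Csf2ra-205 windows from the Csf2ra-202 body. From 5′ to 3′, the WT densities were 21.4 ± 6.70 RPKM in the Csf2ra-202 head, 24.0 ± 5.93 in the 862 bases between the heads, 25.5 ± 7.09 in the Csf2ra-205 head and 6.10 ± 0.411 in the Csf2ra-205 body (SD, n = 3 each). In DM they were 31.4 ± 3.84, 36.8 ± 3.33, 35.5 ± 0.623 and 12.3 ± 0.749 RPKM. Density was thus even over the first 3 segments and dropped in the last one in both groups. DM over WT was 1.47, 1.53 and 1.39 in the first 3 segments and 2.02 in the last. The last segment held 17.7% to 22.9% of the Csf2ra-202 body reads in WT and 24.5% to 27.2% in DM. The segments were set out after their values had been seen and have no test.

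**Figure D3:**
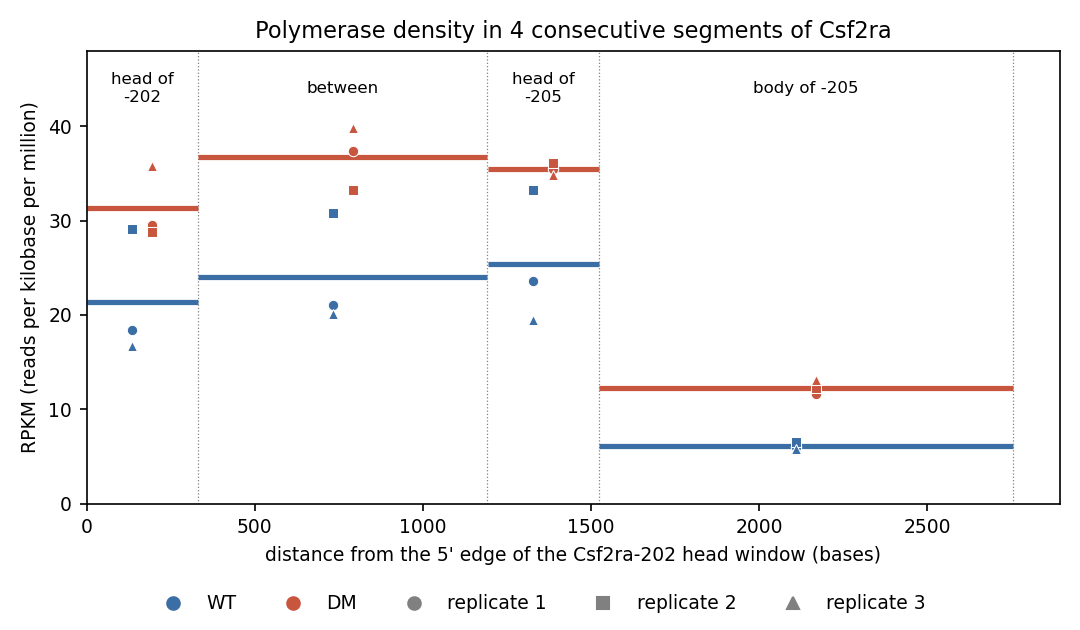
RPKM in 4 consecutive segments of Csf2ra against the distance in bases from the 5′ edge of the Csf2ra-202 head window; horizontal bars are group means over 3 libraries (WT blue, DM red), points are libraries and dotted lines are segment edges. The DM mean is above the WT mean in each segment, by 1.47, 1.53, 1.39 and 2.02 times from left to right.

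Genes with body profiles most like each receptor over the 6 libraries were found by the root mean square difference in log2 RPM, each gene centred on its own mean, among 2482 other genes with a mean body count of at least 100. Nearest to Csf1r was Irf8 (difference 0.053), a transcription factor of monocytes and dendritic cells, followed by Psap (0.060), the precursor of the lysosomal saposins, and Tifa (0.064), an adaptor of innate signalling. Irf8 had 11.4, 18.9 and 20.9 RPM in WT against 46.9, 38.7 and 46.0 in DM, with the low WT replicate 1 and the low DM replicate 2 that Csf1r also had. Nearest to Csf3r were Dock1 (0.064), an activator of the GTPase Rac, Ass1 (0.069), argininosuccinate synthase, and Gstm1 (0.075), a glutathione transferase. Nearest to Csf2ra were Qsox1 (0.060), a sulfhydryl oxidase, Dgat1 (0.077), which makes triglycerides, and Ccn3 (0.077), a matricellular protein. The receptors were further from each other. The difference was 0.28 between Csf2ra and Csf3r, 0.35 between Csf1r and Csf3r and 0.42 between Csf1r and Csf2ra. The median difference over all genes was 0.54 from Csf1r, 0.41 from Csf3r and 0.38 from Csf2ra. The 0.42 between Csf1r and Csf2ra was thus above the median seen from Csf2ra and below the median seen from Csf1r.

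Of the 4 ligand genes listed, Csf1 alone was among the rows analysed here. Csf1, which encodes M-CSF, had 3255, 2595 and 3503 body reads in WT against 4906, 4345 and 3992 in DM, and its mean rose from 155 ± 15.2 to 210 ± 8.70 RPM (SD, n = 3 each). As a log2 fold change this was 0.43 (SE 0.105, edgeR adjusted p 0.00517). With TMM factors it was 0.13 and did not pass (edgeR adjusted p 0.246), and with DESeq2 it was 0.10 (adjusted p 0.415). Its head had a log2 fold change of -0.01 and did not pass (edgeR adjusted p 0.990).

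Of 4 genes for partner chains of the GM-CSF, IL-3 and IL-5 receptors, Csf2rb2 alone was analysed here. Csf2rb2, the mouse beta chain specific for the IL-3 receptor, went the other way from Csf2ra. It had 29028, 13280 and 30713 body reads in WT against 19023, 16079 and 15926 in DM, and fell from 1161 ± 248 to 808 ± 21.1 RPM (SD, n = 3 each). WT replicate 2 was the lowest WT library, and every DM library was below it in RPM, as in 38.3% of all rows. As a log2 fold change this was -0.52 (SE 0.153, edgeR adjusted p 0.0113). The Csf2rb2 head had a log2 fold change of -0.62 and did not pass (edgeR adjusted p 0.0589). Csf2rb2 has a close paralog in Csf2rb, and how reads shared by both were counted is not given in the sources used here.

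Among 7 receptors of the other cytokines in the medium, 3 were analysed here. Kit, the receptor of SCF, fell from 1266 ± 259 to 657 ± 8.53 RPM over its body (SD, n = 3 each; log2 fold change -0.95, SE 0.144, edgeR adjusted p 5.76e-04). Il6ra, the ligand-binding chain for IL-6, rose from 18.1 ± 1.67 to 45.3 ± 3.69 RPM (a log2 change of 1.32, SE 0.116, edgeR adjusted p 6.05e-05). Il6st, the signalling chain gp130, rose from 25.9 ± 2.86 to 43.0 ± 6.97 RPM (a log2 change of 0.73, SE 0.143, edgeR adjusted p 0.00196). The median of the 3 was 0.73, against 0.40 over all rows tested. Of their heads, that of Kit passed as lower (log2 fold change -1.23, edgeR adjusted p 0.00667), against 10.9% of all rows. Those of Il6ra (0.71, edgeR adjusted p 0.108) and Il6st (0.35, edgeR adjusted p 0.429) did not pass.

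Of 28 genes for signal transducers, 10 were analysed here, of which 8 rose, 1 fell and 1 did not pass (median log2 fold change 0.58, against 0.40 over all rows, of which 57.4% were called higher and 42.1% lower). With TMM factors 6 rose and 2 fell, where 1056 and 1276 of all 2999 rows did. Pik3r5, a regulatory subunit of PI3K gamma, rose by a log2 fold change of 1.44 (edgeR adjusted p 7.82e-05). Syk, a tyrosine kinase of immune receptors, rose by 0.79 (edgeR adjusted p 2.20e-04), Tyrobp, an adaptor that couples to Syk, by 0.64 (edgeR adjusted p 7.64e-04), and Plcg2, a phospholipase C, by 0.54 (edgeR adjusted p 0.00106). The gene whose body fell was Pik3cd, a catalytic subunit of PI3K (log2 fold change -0.49, edgeR adjusted p 0.00532), named after its value was seen. Of the 10 heads of this list, 2 passed as higher and 0 as lower (edgeR), against 10% and 10.9% of all rows. The Pik3r5 head passed (edgeR adjusted p 0.0211). Those of Syk, Tyrobp, Plcg2 and Pik3cd did not (edgeR adjusted p 0.906, 0.203, 0.503 and 0.140).

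Of 21 genes for inhibitors of receptor signalling, 8 were analysed here, and 4 rose and 4 fell, where 57.4% of all rows were called higher and 42.1% lower (median log2 fold change 0.04, against 0.40 over all rows). With TMM factors 3 rose and 4 fell, and the median was -0.26, against 0.11 over all rows. Socs3, the feedback inhibitor that binds the G-CSF receptor and gp130, rose from 56.2 ± 11.1 to 104 ± 13.2 RPM (SD, n = 3 each; log2 fold change 0.89, SE 0.157, edgeR adjusted p 0.00117). Cbl, a ubiquitin ligase that acts on activated receptor kinases such as Csf1r and Kit, rose by 0.87 (edgeR adjusted p 9.55e-05), and the phosphatase Ptpn1 by 0.75 (edgeR adjusted p 1.66e-04). Socs2, a target and inhibitor of the STAT5 pathway, fell with a log2 fold change of -0.81 (edgeR adjusted p 6.12e-04), and so did the phosphatase Ptpn2, at -0.72 (edgeR adjusted p 5.88e-04). None of the 8 heads passed the threshold (edgeR; 20.9% of all rows tested did).

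Of 21 genes for transcription factors known to act on myeloid receptor genes, 10 were analysed here, with 5 higher and 5 lower, near the 57.4% and 42.1% of all rows (median log2 fold change 0.26, against 0.40 over all rows). With TMM factors these were 4 and 5, and the median was -0.03, against 0.11 over all rows. Klf4 rose by 1.49 (edgeR adjusted p 2.61e-04), Irf8 by 1.36 (edgeR adjusted p 5.60e-04), Cebpd by 1.17 (edgeR adjusted p 0.00319) and Cebpb by 1.03 (edgeR adjusted p 0.00199). Gata2, a factor of stem, mast and early progenitor cells, fell from 1312 ± 169 to 726 ± 32.3 RPM (SD, n = 3 each; log2 fold change -0.85, edgeR adjusted p 3.21e-04). Among the heads of these genes Irf8 passed as higher (log2 fold change 0.87, edgeR adjusted p 0.0323), against 10% of all rows, and Gata2 (-1.18, edgeR adjusted p 0.0116) and Gata1 (-1.18, edgeR adjusted p 0.0209) as lower, against 10.9%. Spi1, which encodes PU.1, and Cebpa had no row among those analysed here.

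**Figure D4:**
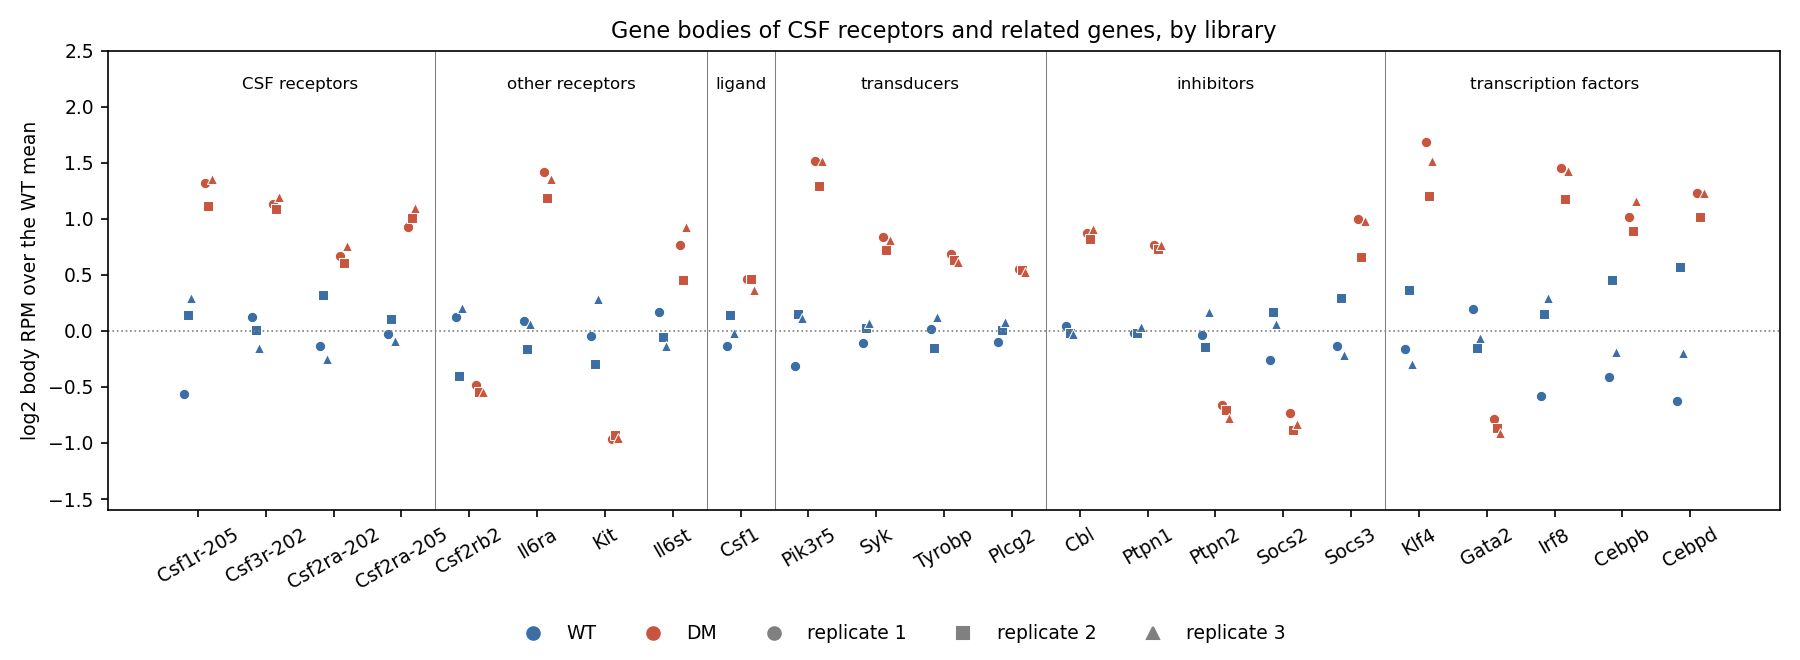
Body RPM of each library relative to the WT mean of the gene, on a log2 scale, for the receptor rows and for the genes named by adjusted p from the pathway lists (Pik3cd is not drawn), WT in blue and DM in red with 1 point per library. Csf2rb2, Kit, Ptpn2, Socs2 and Gata2 have all DM libraries below 0, and all other genes shown have all DM libraries above 0.

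Markers of cell types moved in both directions, some with the receptors and some against them. Of all rows tested 57.4% were called higher and 42.1% lower, so nearly any marker among them had to be called. Of 12 monocyte and macrophage markers (receptors left out), 7 were among the rows analysed and 7 of 7 rose; their summed body RPM was 224 to 288 in WT and 605 to 681 in DM. Of 11 neutrophil markers 4 were analysed and all 4 rose (57.1 to 88.8 against 187 to 221 RPM), and of 6 dendritic markers 3 were analysed and all 3 rose (39.4 to 52.8 against 85.5 to 102 RPM). The only marker of granulocyte-monocyte progenitors analysed, Ctsg, fell (43.9 to 49.0 against 21.9 to 31.6 RPM), and the only lymphoid one, Il7r, rose (18.8 to 28.5 against 56.0 to 71.5 RPM). Of 8 stem and progenitor markers 6 were analysed: of the 5 with enough reads for the test 4 fell and Procr rose (sum 1583 to 2292 against 1010 to 1050 RPM). All 4 mast and basophil markers analysed of 8 fell (1447 to 2592 against 1108 to 1184 RPM), as did all 3 erythroid of 9 (56.6 to 72.3 against 27.9 to 34.8 RPM) and 1 megakaryocyte marker of 6, Itga2b (132 to 166 against 76.9 to 89.8 RPM). Kit, the marker in the cell label, was present in both groups. With TMM factors 2 of the 3 dendritic markers passed, and the counts of the other marker lists were as given. Irf8 is among both the dendritic markers and the transcription factors, Gata1 among the erythroid markers and the transcription factors, and Kit among the progenitor markers and the cytokine receptors. No marker analysed was at 0 in a whole group. The part of these cell types in the receptor results was not tested.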

How the data were processed

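PRO-seq libraries (3 WT, 3 DM) were analysed from the deposited table. Raw counts of reads in head and body windows and a read total per library were deposited by the authors. The signal deposited by the authors is the mean of body counts over size factors, which a linear solve recovered. The log2 fold changes, p-values and adjusted p-values of the body comparison were deposited by the authors, as was a percentile score of each merged ratio; the method is not given in the sources used here. The submitters' processing notes name Bowtie 1.1.2, bedtools 2.28, cutadapt, Trimmomatic and MACS2 with the builds mm10 and dm3; the role of dm3, the treatment of multiply mapped reads and how the library totals were counted are not given in the sources used here, and every RPM and fold change rests on those totals. The 12 deposited RPKM columns of single libraries were not used.

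Counts of all rows entered the quasi-likelihood test of edgeR 4.0.16 (R 4.3.3; filterByExpr, minimum count 10, minimum total 15; Benjamini-Hochberg over all rows; threshold 0.05) with library totals as the scale, since factors computed on rows selected by the same comparison would depend on the selection. The ratio used the interaction of window and group with library as a block. SE is the log2 fold change over the root of the F statistic. Alternatives were TMM factors, the authors' size factors, DESeq2 1.42.0, no filter, 1 row per gene, a replicate block and leaving out each library.

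The receptors and the lists were chosen with earlier results of these data known. Up to 5 genes per list were named, by adjusted p; 1 gene that this rule names is not reported here. A gene with several rows was represented by the row with the highest mean body count. Intervals between libraries rest on 3 per group.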

Additional observations from a re-analysis of the deposited data

How the results depend on the processing

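The receptor rows were selected for a body difference in these same counts, so the persistence of their body direction is no sign of stability. The Csf1r and Csf3r heads rest on 11 to 60 reads per library. Relative to library totals, TMM factors moved the median log2 fold change of all bodies by -0.29 and the authors' size factors by -0.02. Except where the scaling itself is named, the cause of a change was not tested.

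For bodies, 2982 rows passed (1720 higher, 1262 lower). The number higher was 1056 with TMM factors, out of 2332 called, and 976 with DESeq2, out of 2276; leaving out 1 library gave 2287 to 2925 rows, 1455 to 1712 higher and 807 to 1247 lower, the lowest number lower without DM replicate 3 and the lowest number higher without DM replicate 1. Csf2ra-202 was 0.38 with TMM factors and 0.34 with DESeq2, not past the threshold, and 0.57 to 0.87 when 1 library was left out. The other 3 receptor bodies passed in every alternative run.

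For heads, 596 rows passed (285 higher, 311 lower). TMM factors gave 1112 (548 higher, 564 lower), DESeq2 997 (497 higher, 500 lower) and the replicate block 891, with 470 lower. Leaving out 1 library gave 18 to 1054 rows (14 to 647 higher, 4 to 664 lower); the 18 came without DM replicate 1 and the 1054 without WT replicate 2. TMM factors brought Csf2ra-202 (0.64), Csf2ra-205 (0.55) and Csf3r-202 (0.86) past the threshold, and DESeq2 brought Csf2ra-202 (0.65) and Csf2ra-205 (0.57). In leave-one-out fits the heads ran from 1.06 to 1.46 for Csf1r-205, 0.62 to 0.98 for Csf3r-202, 0.41 to 0.84 for Csf2ra-202 and 0.32 to 0.72 for Csf2ra-205.

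For the ratio, 2 rows passed, both lower, beside 433 at an unadjusted p under 0.05. The replicate block gave 46 (6 higher, 40 lower), DESeq2 41 (4 higher, 37 lower) and separate TMM factors 61 (41 higher, 20 lower). Leaving out 1 library gave 0 to 90 rows (0 to 27 higher, 0 to 63 lower). Separate TMM factors turned Csf1r-205 to 0.27, Csf2ra-202 to 0.26 and Csf3r-202 to 0.035, none past the threshold. Csf1r-205 ran from -0.31 to 0.12 in leave-one-out fits, at 0.03 without WT replicate 1 and 0.12 without DM replicate 1.

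The log2 difference of Csf1r to Csf3r ran from -0.16 to 0.41 when 1 library was left out, and that of Csf3r to Csf2ra was 0.13 with the other Csf2ra row. Same-numbered WT and DM libraries deviated together at r -0.056, -0.175 and 0.438 across body rows for numbers 1 to 3, so the numbers were not taken as pairs; the replicate block changed no receptor's call.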

Other observations

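The GM-CSF receptor alpha chain and the IL-3 receptor beta chain can be set against each other within a library, which removes any library scaling; this ratio was chosen after the values had been seen and has no test. The Csf2ra-202 body was 0.249, 0.489 and 0.216 times as dense as the Csf2rb2 body in WT replicates 1 to 3 and 0.657, 0.659 and 0.731 times in DM replicates 1 to 3. The DM mean was 2.15 times the WT mean. The groups could not have overlapped, so their separation adds nothing to the body values. In RPM every DM library was above every WT library for the Csf2ra-202 body and below every WT library for the Csf2rb2 body. With Csf2ra-205 the DM ratio was 0.348 ± 0.0288 and the WT ratio 0.125 ± 0.0391 (SD, n = 3 each).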
